A study of Saccharomyces cerevisiae with 22 samples.

Results

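A set of 6 yeast genes of the G1 cyclin circuit was followed through all 22 libraries: the cyclin gene CLN3, the inhibitor gene WHI5, the Pho85 cyclin genes PCL1, PCL2 and PCL10, and the regulator gene TEC1. They are 6 of 6002 protein-coding genes with an upstream window in the annotation. The measure was the share of a library's Ty5 insertion sites that lay within 1 kb upstream of the start codon. The genes were chosen by these same shares, for opposite values with Kar4 and Gal4 fusions near several of them, so all Gal4 and Kar4 values upstream of them are description and carry no test.

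Calling cards are insertions of the retrotransposon Ty5 left beside a bound protein. Its integrase is held by Sir4, a silencing factor, and a transcription factor joined to part of Sir4 draws new Ty5 copies to the DNA it binds. Fusions of 11 factors were studied, and each library lists the sites of 1 fusion or of the strain without Sir4. A site is 1 position in 1 direction, whatever its reads.

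Gal4, Leu3 and Gcn4 fusions were each overexpressed from a plasmid (1 library each). A multiplex of 8 barcoded fusions (Gal4, Kar4, Lee1, Rgm1, Rpi1, Sef1, Sfg1 and Yrm1) was made in 2 biological replicates, called pools here. These libraries and the Sir4-free library (1 library) come from 1 diploid (MATa/MATα). Both its copies carry sir4::KanMX and trp1::Hyg, and also his3∆1, leu2∆0 and ura3∆0. It has 1 copy each of met15∆0 and lys2∆0 beside MET15 and LYS2. The Sir4-free library therefore lacks SIR4 as the fusion strains do. Such a diploid carries both mating types, a state in which yeast does not answer mating pheromone. The Thi2 fusion was expressed from its own locus in a MATa haploid with THI2::sir4, sir4::KanMX and trp1::Hyg, as well as his3∆1, leu2∆0, ura3∆0 and met15∆0, starved of thiamine or in complete medium (1 library each). All cells were His+ FOAr colonies, grown with glucose or galactose, and which sugar a library had is not known here. The 22 libraries of 14 groups held 4755 to 79573 sites each, so a count of 0, read as a limit of 3 counts of the total, leaves room for a share of 0.00377% in the Sir4-free library and of 0.0631% in the shallowest Rgm1 library. Brackets after shares are 95% Clopper-Pearson intervals and cover counting error only. For 0 sites their upper end lies above the limit of 3 counts.

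In late G1 phase the cyclin Cln3 with its kinase Cdc28 phosphorylates Whi5, which otherwise holds the transcription factor SBF inactive. SBF then turns on further cyclin genes, among them PCL1 and PCL2, whose products direct another kinase, Pho85. Pcl10 directs Pho85 to glycogen synthase. Tec1 acts with Ste12 on genes of filamentous growth. Kar4 is a partner of Ste12 at genes of mating and nuclear fusion, and Gal4 is the activator of the galactose genes, with PCL10 among its known targets.

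The 6 windows did not share 1 pattern. PCL2 and TEC1 were fuller with Kar4 than without Sir4. With Gal4, PCL2 held 0, 1 and 5 sites, and TEC1 was empty in the plasmid library and near the Sir4-free share in the pools. The median share over all windows was 0% in both Gal4 groups and 0.0113% without Sir4, so few Gal4 sites are not particular to these genes. CLN3 and PCL10 were fuller with Gal4 and near the Sir4-free share with Kar4. PCL1 held 0, 3 and 1 Gal4 sites and was near the Sir4-free share with Kar4, and the window of WHI5 was thinly filled with every fusion. An opposite pattern of the 2 fusions over the whole set is therefore not what the upstream windows show.

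**Figure D1:**
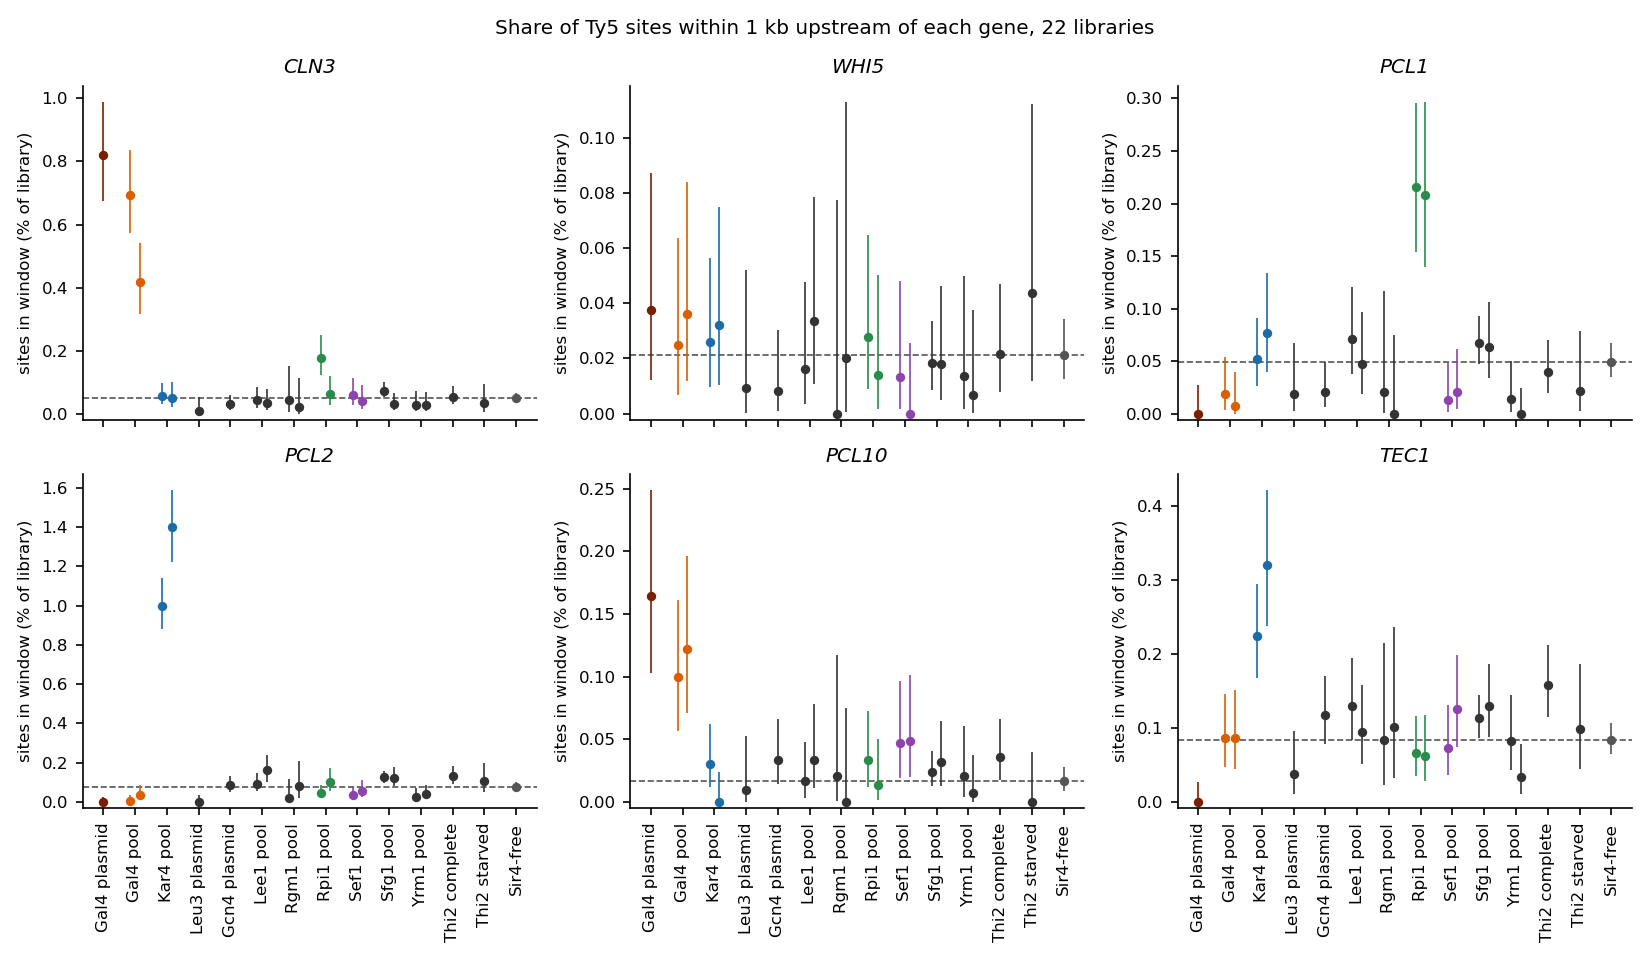
Share of each library's Ty5 sites (%, vertical axis, a separate linear scale per gene) within 1 kb upstream of the 6 genes, by fusion (horizontal axis). Each point is 1 library with its 95% Clopper-Pearson interval, and the dashed line is the Sir4-free share: CLN3 stands out with Gal4 (0.822% on the plasmid), PCL2 with Kar4 (1.00% and 1.40%) and PCL1 with Rpi1 (0.216% and 0.208%).

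CLN3 encodes the most upstream G1 cyclin. Its window held 110 sites in the Gal4 plasmid library, 112 and 58 in the Gal4 pools, and 39 in the far deeper Sir4-free library. These are shares of 0.822% (0.676 to 0.990), 0.695% (0.573 to 0.836), 0.418% (0.317 to 0.540) and 0.0490% (0.0349 to 0.0670). All 3 Gal4 libraries lay above the other 19, and the plasmid share was 16.8 times the Sir4-free share. In reads the window took 0.936% of the Gal4 plasmid library and 0.218% and 0.0856% of the Gal4 pools, against 0.0397% of the Sir4-free library. With sites of at least 5 reads the pool mean was 0.345%, against 0.556% with all sites. Kar4 pools held 13 and 8 sites, or 0.0563% and 0.0512%, with intervals that include the Sir4-free share. Over the 17 libraries of neither fusion the share ran from 0.00938% in the Leu3 library to 0.178% in an Rpi1 pool, with a median of 0.0418%. Gal4 and untargeted Ty5 used the same stretch: the fullest 100 bp lay 701 to 800 bp upstream in both (64 of 170 pool sites and 16 of 39 Sir4-free sites; chromosome 1, 68221 to 68320 in the files' coordinates for the pool).

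The Gal4 cluster at CLN3 did not end at 1 kb. The gene CYC3, a heme lyase gene for cytochrome c, lies 1196 to 2005 bp upstream on the same strand. In the stretch 1001 to 2000 bp upstream, Gal4 pools held 447 and 375 sites (2.77% and 2.70%), the Gal4 plasmid library 108 (0.807%, 0.662 to 0.973) and the Sir4-free library 40 (0.0503%, 0.0359 to 0.0684). The pools were thus fuller there than within 1 kb, while the plasmid library was about as full in both stretches. From 2001 to 3000 bp upstream the share was 0.613% in the Gal4 plasmid library, 0.394% on average in the Gal4 pools and 0.0741% in the Sir4-free library. The gene body of CLN3 had 0 sites in each Gal4 library and 2 in the Sir4-free library. Pool and plasmid differ in how the fusion was supplied and perhaps in medium, and these cannot be told apart.

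WHI5 encodes the Cln3 target that restrains SBF. Its upstream window held 5 Gal4 plasmid sites, 4 and 5 Gal4 pool sites, 6 and 5 Kar4 pool sites and 17 Sir4-free sites, and the intervals of these 5 fusion libraries all include the Sir4-free share of 0.0214%. The other side of the gene was different. The gene body held 214 sites in the Gal4 plasmid library (1.60%, 1.39 to 1.83), 391 and 321 in the Gal4 pools (2.43% and 2.31%) and 16 in the Sir4-free library (0.0201%, 0.0115 to 0.0327). Kar4 pools held 15 and 6 sites there. The Gal4 sites gathered toward the 3′ end of WHI5, before LPX1, a peroxisomal lipase gene that starts 1054 bp past the start codon of WHI5 on the same strand. The divergent neighbour TGL5, a lipase gene, covers the window beyond 345 bp.

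**Figure D2:**
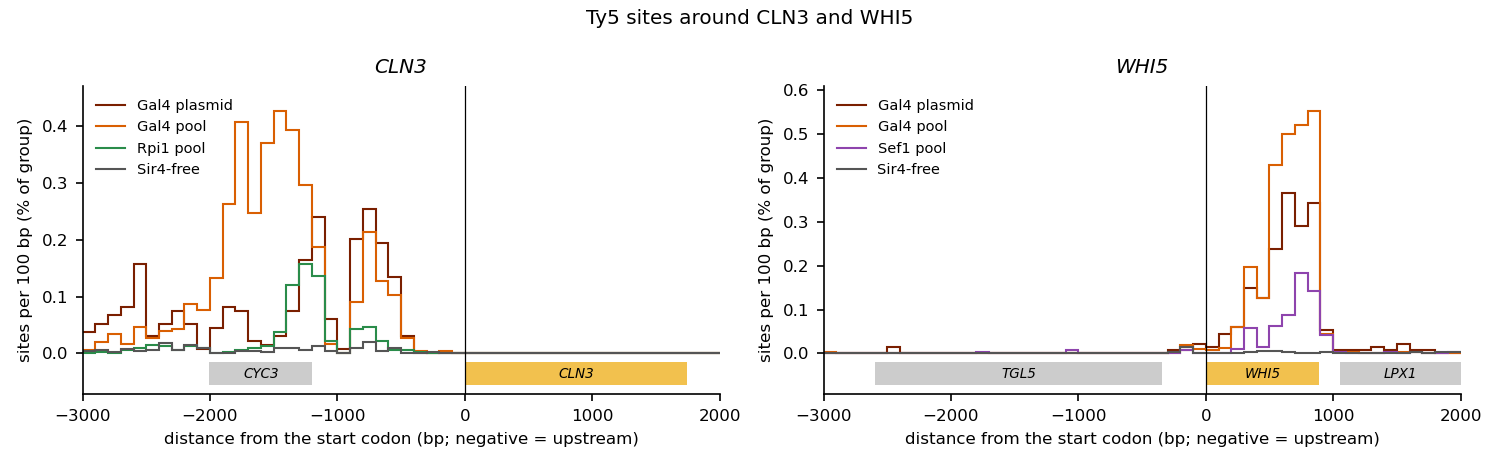
Share of a group's Ty5 sites in each 100 bp (%, vertical axis) by distance from the start codon (bp, horizontal axis) at CLN3 (Gal4 plasmid, Gal4 pools, Rpi1 pools, Sir4-free) and WHI5 (Gal4 plasmid, Gal4 pools, Sef1 pools, Sir4-free). Bars under the lines are annotated genes, and both replicates of a pool are summed. Gal4 sites at CLN3 run on beyond 1 kb (447 and 375 pool sites 1001 to 2000 bp upstream, a stretch that CYC3 mostly covers). Those at WHI5 lie over the gene itself.

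PCL1 encodes a G1 cyclin of Pho85. Its window held 0 sites in the Gal4 plasmid library, 3 and 1 in the Gal4 pools, 12 and 12 in the Kar4 pools and 39 in the Sir4-free library. The Kar4 shares, 0.0520% and 0.0768%, had intervals that include the Sir4-free share of 0.0490%. The 0 sites of the Gal4 plasmid library leave room for 0.0224% by the limit of 3 counts, and its interval ends at 0.0276%. The largest share of all groups came from Rpi1, a regulator with a part in cell wall gene expression, with 39 and 30 sites or 0.216% (0.154 to 0.296) and 0.208% (0.140 to 0.297). Of the 69 Rpi1 sites, 35 lay 401 to 500 bp upstream (chromosome 14, 87397 to 87496 in the files' coordinates), which was also the fullest stretch without Sir4 (14 of 39). RFC3, a gene for a replication factor C subunit, covers the part of the window beyond 657 bp.

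PCL2, the close relative of PCL1, showed the largest Kar4 share of the 6 genes. Kar4 pools held 232 and 218 sites in its window, the Gal4 plasmid library 0, the Gal4 pools 1 and 5, and the Sir4-free library 62. The Gal4 pool shares were 0.00621% (0.000157 to 0.0346) and 0.0360% (0.0117 to 0.0840), and the interval of the second includes the Sir4-free share. The Kar4 shares were 1.00% (0.880 to 1.14) and 1.40% (1.22 to 1.59), against 0.0779% (0.0597 to 0.0999) in the Sir4-free library. The mean of 1.20% ± 0.277 (SD, n = 2) was 15.4 times the Sir4-free share and ranked 3 among the 6002 windows in Kar4, behind FIG2, an adhesin gene of mating cells, at 1.71%, and 1 further window. No other library passed 0.161%. In reads the window took 1.59% and 2.52% of the Kar4 libraries and 0.0587% of the Sir4-free library.

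Kar4 sites in the PCL2 window lay at a median of 509 bp upstream, with quartiles at 269 and 634 bp. The fullest 100 bp, 601 to 700 bp upstream, held 128 of 450 Kar4 sites and 21 of 62 Sir4-free sites (chromosome 4, 234227 to 234325 in the files' coordinates for Kar4). Within 400 bp of the start codon lay 69 of 232 and 75 of 218 Kar4 sites, or 29.7% (23.9 to 36.1) and 34.4% (28.1 to 41.1), against 12 of 62 in the Sir4-free library, or 19.4% (10.4 to 31.4). The intervals overlap, and a shift toward the start codon was not tested. Sites ran in both directions, with 236 of 450 Kar4 sites in the gene's direction. Of the 450 sites, 86 were also listed in another library of the same pool, 4 of them with at least 10 times the reads there. Over all sites of the Kar4 libraries, 4000 of 23097 and 1918 of 15615 were also listed in another library of their pool.

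PCL10 directs Pho85 to glycogen synthase and is a known Gal4 target. Its window held 22 sites in the Gal4 plasmid library, 16 and 17 in the Gal4 pools, 7 and 0 in the Kar4 pools and 13 in the Sir4-free library. The Gal4 plasmid share was 0.164% (0.103 to 0.249) and the pool mean 0.111% ± 0.0164 (SD, n = 2), against 0.0163% (0.00870 to 0.0279) without Sir4. All 3 Gal4 shares exceeded the 17 libraries of neither fusion, whose highest was 0.0488% in a Sef1 pool. Sites of every Gal4 library lay within 400 bp of the start codon, as did 12 of 13 Sir4-free sites. The rest of the window is mostly the ribosomal protein gene RPL1B, which ends 369 bp upstream. In the Gal4 pools 12 of 16 and 16 of 17 sites ran in the gene's direction, 84.8% together (68.1 to 94.9). The share was 45.5% (24.4 to 67.8) in the Gal4 plasmid library, 10 of 22 sites, and 53.8% (25.1 to 80.8) in the Sir4-free library, 7 of 13. This difference was seen after the data were looked at and was not tested. At CLN3 the Gal4 pools differed from each other, with 45.5% (36.1 to 55.2) and 70.7% (57.3 to 81.9) of sites in the gene's direction.

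TEC1 was, after PCL2, the fullest of the 6 windows with Kar4. Kar4 pools held 52 and 50 sites, the Gal4 plasmid library 0, the Gal4 pools 14 and 12, and the Sir4-free library 67. The Kar4 shares of 0.225% (0.168 to 0.295) and 0.320% (0.238 to 0.422) lay above the other 20 libraries, at a mean 3.24 times the Sir4-free share of 0.0842% (0.0653 to 0.107). The Gal4 libraries split. The pools, at 0.0869% and 0.0864%, sat at the Sir4-free share, while the plasmid library had 0 of 13383 sites, which leaves room for 0.0224% by the limit of 3 counts, and an interval that ends at 0.0276%. Of the 26 Gal4 pool sites 16 were also listed in another library of their pool, 5 of them with at least 10 times the reads there. Over all sites of the Gal4 pool libraries, 4771 of 16116 and 3220 of 13886 were also listed in another library of their pool. Kar4 sites peaked 301 to 400 bp upstream (30 of 102) and Sir4-free sites 401 to 500 bp upstream (23 of 67; chromosome 2, 408669 to 408744 in the files' coordinates).

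**Figure D3:**
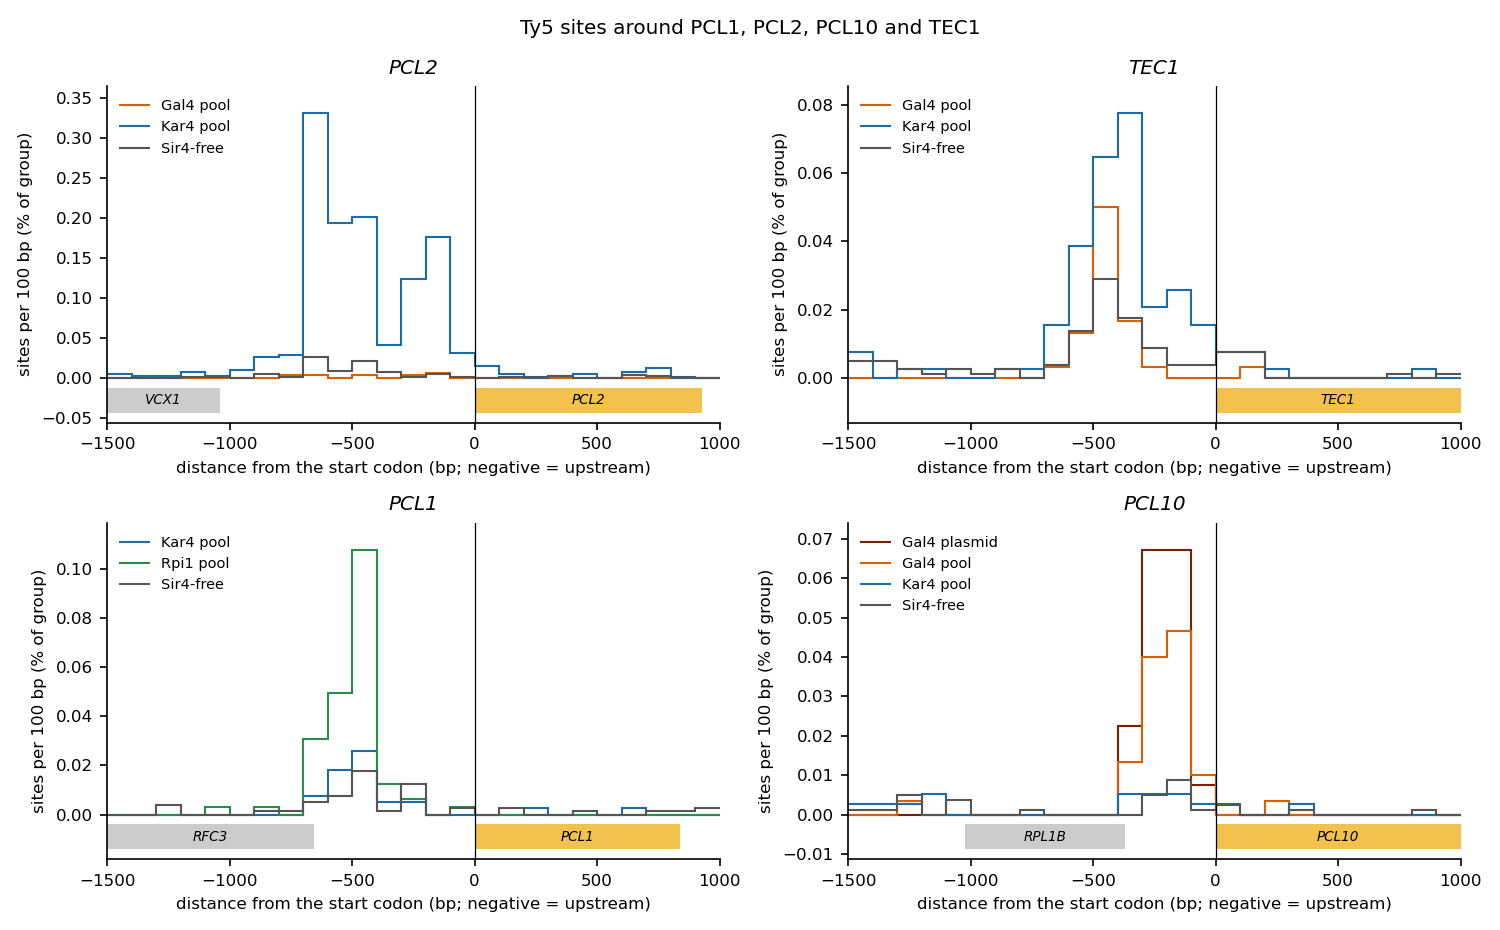
Share of a group's Ty5 sites in each 100 bp (%, vertical axis) by distance from the start codon (bp, horizontal axis) at PCL2, TEC1, PCL1 and PCL10, for the groups named in each panel, with both pool replicates summed and annotated genes as bars. At PCL2 Kar4 peaks 601 to 700 bp upstream, and at PCL1 Rpi1 peaks 401 to 500 bp upstream. At PCL10 Gal4 sites lie within 400 bp of the start codon, as do 12 of 13 Sir4-free sites.

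PCL2 and TEC1 were also among the fullest windows of libraries other than Kar4. TEC1 ranked 1 and PCL2 ranked 3 of 6002 with Thi2 in complete medium, at 0.158% (0.115 to 0.212) and 0.133% (0.0934 to 0.183). They ranked 12 and 9 with Sfg1, a regulator of filamentous growth, 15 and 7 with Lee1, a zinc-finger protein, and 37 and 47 without Sir4. By contrast WHI5 ranked between 304 and 2395 in every group. It ranked 304 in the Gal4 plasmid library, 324 in the Gal4 pools and 1292 without Sir4. TEC1 ranked 180 in the Gal4 pools. CLN3 ranked 18 in the Gal4 plasmid library, 39 in the Gal4 pools, 88 with Rpi1 and 274 without Sir4.

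The 6 other pooled fusions were tested, since the genes were chosen for their Kar4 and Gal4 values. Earlier results of these data were known at that choice, so these tests are not fully independent of it. Each fusion was compared with the average of the other 5 by edgeR's quasi-likelihood test over 4576 windows (12 libraries, Benjamini-Hochberg adjustment over all windows, threshold 0.05). Because each fusion serves in the mean of the others, these comparisons share libraries. Of 36 tests on the 6 genes 4 were called, all higher: CLN3 and PCL1 with Rpi1, PCL1 and PCL2 with Sfg1. The share of all windows called was 4.17% with Rpi1 and 5.51% with Sfg1. With Lee1 (1.79% of windows called), Rgm1 (3.56%), Sef1 (4.81%) and Yrm1 (6.36%) none of the 6 genes was called by this test. Unadjusted p values under 0.05 in those 4 comparisons numbered 768, 487, 505 and 596 of the 4576 windows.

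PCL1 rose with Rpi1 by a log2 fold of 3.28 ± 0.35 (SE; adjusted p 2.97e-18, edgeR), where the median over all windows was 0.42. Its shares were 0.216% and 0.208% in the Rpi1 pools, against 0 to 0.0707% in the 10 pools of the other 5 fusions, with no overlap. CLN3 rose with Rpi1 by 1.68 ± 0.35 (adjusted p 0.000115, edgeR), from unequal replicates of 32 and 9 sites or 0.178% and 0.0624%. Without the fuller Rpi1 replicate its fold was 0.64 (adjusted p 0.890), and with a window of 600 bp the adjusted p was 0.563. Both Rpi1 pools were full farther out, with 89 and 74 sites 1001 to 2000 bp upstream (0.494% and 0.513%), against 40 in the Sir4-free library (0.0503%). A window of 2 kb, added after the data were seen, gave CLN3 with Rpi1 a log2 fold of 2.29 (adjusted p 1.13e-31, edgeR).

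With Sfg1, PCL2 had a log2 fold of 1.10 ± 0.27 (adjusted p 0.00337, edgeR) and PCL1 one of 1.24 ± 0.40 (adjusted p 0.0433, edgeR). The median over all windows was 1.04 in this comparison, so relative to it neither gene stood out. PCL2 held 69 and 27 sites with Sfg1, 0.125% and 0.121%, against 0.0210% to 0.161% in the other 10 pools, which overlap. Of its 96 Sfg1 sites 54 were also listed in another library of the same pool. Over all sites of the Sfg1 libraries, 7857 of 54987 and 2940 of 22233 were so listed. Leaving out replicate 1 of Sfg1 ended both calls (adjusted p 0.234 for PCL2 and 0.359 for PCL1), and leaving out replicate 2 ended that of PCL1 (0.0956). PCL2 was the 1 window that DESeq2 called higher with Sfg1 (adjusted p 0.0182).

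**Figure D4:**
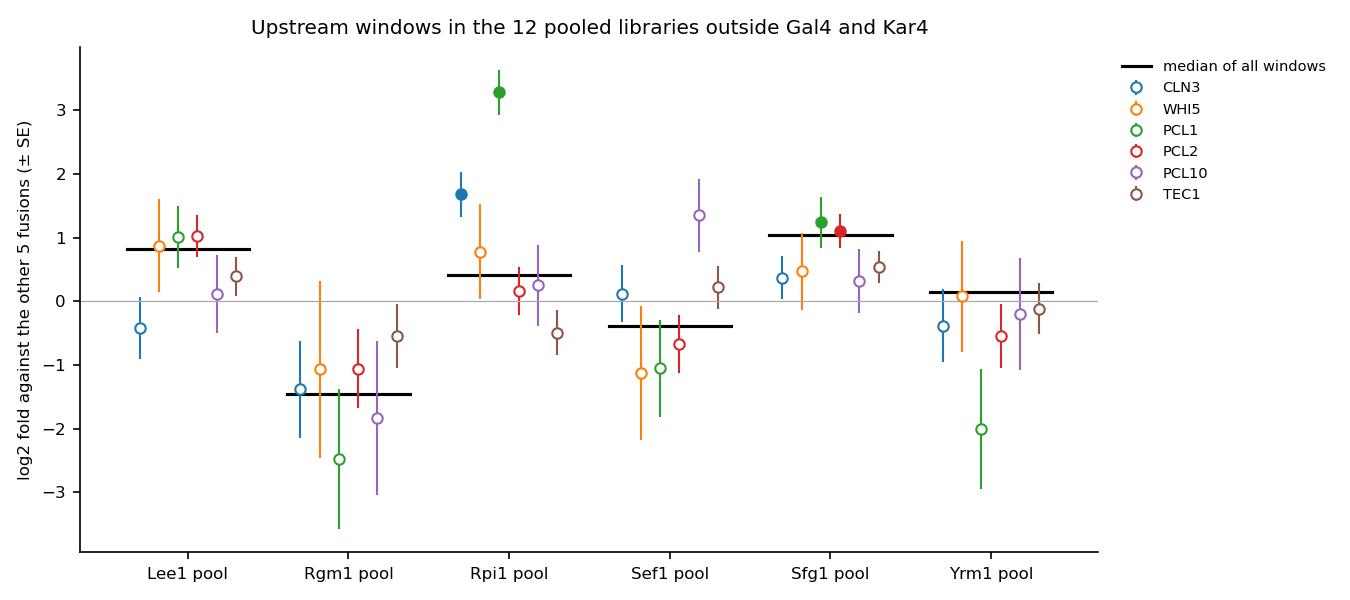
Log2 fold (vertical axis) of each upstream window in 6 pooled fusions (horizontal axis) against the mean of the other 5, from edgeR, with standard errors and 2 libraries a fusion. Filled points passed the threshold, and black bars mark the median over all 4576 windows: PCL1 with Rpi1 (3.28) lies far above its bar (0.42), while PCL2 and PCL1 with Sfg1 (1.10 and 1.24) lie near theirs (1.04).

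The stretch over WHI5 where Gal4 gathered was filled by further fusions too. Sef1 pools held 75 and 86 sites in the WHI5 gene body (0.50% and 0.60%) and Yrm1 pools 27 and 27 (0.187% and 0.182%), against 16 in the Sir4-free library (0.0201%). Yrm1 acts in multidrug resistance. The upstream window of LPX1, looked at after the values were seen, covers this stretch. LPX1 rose with Sef1 (log2 fold 3.48 ± 0.22, adjusted p 1.38e-52) and with Yrm1 (2.10 ± 0.31, adjusted p 2.73e-10), where the medians over all windows were −0.38 and 0.14. It fell by 2.27 ± 0.68 with Rgm1 (adjusted p 0.0265) and by 1.20 ± 0.37 with Sfg1 (adjusted p 0.0366) in the same edgeR fit. The medians over all windows in those comparisons were −1.46 and 1.04. Both lower calls were lost without either replicate of the fusion (adjusted p 0.225 and 0.814 with Rgm1, 0.0992 and 0.124 with Sfg1).

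For single libraries each window with at least 5 sites was tested by Fisher's exact test (two-sided), which compares libraries and not conditions. The 4 comparisons with the Sir4-free library share it. Of 30 tests on the 6 genes 1 was called. PCL2 had 0 of 10662 Leu3 sites, which leaves room for 0.0281% by the limit of 3 counts (interval to 0.0346%), against 62 of 79573 Sir4-free sites, and the ratio of the shares was 0 (upper bound 0.457; adjusted p 0.0264, Fisher's exact test). This low value was known beforehand and is no independent support. It lost its call with a 600-bp window (adjusted p 0.505) and with sites of at least 5 reads (adjusted p 0.301), and in that comparison 2.49% of windows were called in either direction and 0.0404% were called lower. Leu3, the regulator of leucine synthesis genes, had 1 CLN3, 1 WHI5, 2 PCL1, 1 PCL10 and 4 TEC1 sites.

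With Gcn4, the activator of amino acid synthesis genes, 0 of the 6 genes were called, where 3.14% of windows were (162 of 5152, 451 at an unadjusted p under 0.05). Gcn4 held 7 CLN3, 2 WHI5, 5 PCL1, 20 PCL2, 8 PCL10 and 28 TEC1 sites. The ratio of its PCL2 share to the Sir4-free share was 1.08 (0.616 to 1.81) and that of TEC1 1.40 (0.864 to 2.20). The ratio at PCL10 was 2.05 (0.738 to 5.35).

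Thi2, the activator of thiamine synthesis genes, showed no called difference at the 6 genes in either medium by Fisher's exact test. Starved Thi2 cells had 3 CLN3, 4 WHI5, 2 PCL1, 10 PCL2, 0 PCL10 and 9 TEC1 sites of 9171, against 15, 6, 11, 37, 10 and 44 of 27883 in complete medium. The starved to complete ratio was 0.622 (0.267 to 1.29) at TEC1 and 0.822 (0.364 to 1.69) at PCL2. Against the Sir4-free library the complete-medium share of TEC1 was 1.87 times as large (1.25 to 2.79, adjusted p 0.256, Fisher's exact test). That of PCL2 was 1.70 times as large (1.10 to 2.60). The Thi2 libraries come from a MATa haploid and the Sir4-free library from a MATa/MATα diploid, so fusion and strain cannot be told apart. The share of windows called was 0.315% for starved against complete medium, 0.501% for starved and 0.0563% for complete medium against the Sir4-free library. Unadjusted p values under 0.05 numbered 145, 241 and 386 in these comparisons.

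Other genes of the G1 and Pho85 circuit were followed in a list of 48, of which 45 could be used. The list was chosen with earlier results of these data known, so its shares of called genes are no independent support. The list was also tested in Gal4 and Kar4 pools, each against the 6 other fusions in an edgeR fit of 16 libraries that was added after the data were seen. With Kar4 5 of 40 tested list genes were called higher, or 12.5%, against 3.26% of all windows, and 0 lower. STE12, the partner of both Kar4 and Tec1, held 93 and 58 Kar4 sites (0.403% and 0.371%), against 20 in the Sir4-free library (0.0251%), with a log2 fold of 5.45 ± 0.31 (adjusted p 2.21e-67, edgeR). The S-phase cyclin genes CLB6 (3.88 ± 0.54) and CLB5 (1.55 ± 0.47), the G1 cyclin gene CLN2 (1.26 ± 0.35) and the regulator gene SWI5 (2.16 ± 0.69) also rose, where the median over all windows was 0.62. Each of those 4 lost its call when 1 Kar4 replicate was left out, with adjusted p values of 0.0521 for CLB6, 0.115 and 0.346 for CLB5, 0.478 for CLN2 and 0.916 for SWI5.

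Among list genes that Kar4 did not raise, MCM1, a regulator gene, held 20 and 14 sites (log2 fold −0.04) and the G1 cyclin gene CLN1 12 and 13 (−0.10). PHO81, the gene of a Pho85 inhibitor, held 11 and 10 (0.62, adjusted p 0.480, edgeR). The median of the list was 0.92 with Kar4.

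With Gal4 2 of 40 list genes were higher, or 5.00%, where 3.54% of all windows were. NRM1, the gene of a G1 co-repressor, held 53 and 43 Gal4 pool sites (0.329% and 0.310%), against 25 Sir4-free sites (0.0314%), with a log2 fold of 4.67 ± 0.33 (adjusted p 2.77e-44, edgeR). MCM1 held 66 and 71, with a log2 fold of 2.76 ± 0.22, and lost its call with a 600-bp window (log2 fold 0.58). The median over all windows was −1.43 and that of the list −0.73.

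In the 6 tested pools the list gave 3 of 37 genes higher with Rpi1 (8.11%, where 3.76% of windows were higher) and 3 of 37 with Sef1 (8.11%, where 4.39% were). WHI2, a gene named for its part in cell size control under starvation, was in both, at log2 folds of 3.05 ± 0.45 and 3.06 ± 0.45, but lost both calls with a 600-bp window. PHO4, the gene of the phosphate regulator that Pho85 inhibits, was in both as well (1.19 ± 0.37 and 2.25 ± 0.32), with the Rpi1 call lost without either Rpi1 replicate (adjusted p 0.577 and 0.110). HCM1, a forkhead regulator gene of S phase, rose with Rpi1 (2.44 ± 0.41) and MCM1 with Sef1 (1.78 ± 0.25), where MCM1 lost its call at 600 bp (adjusted p 0.198). The repressor gene XBP1 was the 1 list gene higher with Rgm1 (2.33 ± 0.42; 2.05% of windows higher), a call lost at 600 bp (adjusted p 0.744) and with sites of at least 5 reads (0.0968), and with Yrm1 (1.60 ± 0.41; 5.99%), the call with Yrm1 being lost without either replicate (adjusted p 0.197 and 0.0888). Rgm1 had 0 WHI2 sites in both pools, the 1 list gene called lower, where 1.51% of windows were (adjusted p 0.275 and 0.390 without a replicate). With Sfg1 the kinase gene KSS1 (1.52 ± 0.49) and STE12 (2.03 ± 0.61) were called (4.39% of windows higher), beside a median of 1.04 over all windows, and both calls were lost without either Sfg1 replicate (adjusted p 0.0926 to 0.354). With Lee1 0 of 37 were called.

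In single libraries Leu3 was called higher at 3 of 43 list genes (6.98%, where 2.45% of windows were). These were MCM1 with 63 sites, the Pho85 cyclin gene PCL7 with 29 and PHO4 with 29, against 50, 17 and 48 in the Sir4-free library (adjusted p 5.34e-27, 3.23e-14 and 3.19e-07, Fisher's exact test). MCM1 lost its call with a 600-bp window (adjusted p 0.0950). Gcn4 was higher at 2 of 43 (4.65%, where 2.89% of windows were), NRM1 with 47 sites and the Pho85 cyclin gene PCL5 with 28, against 25 and 19 in the Sir4-free library (adjusted p 3.78e-12 and 6.28e-06, Fisher's exact test). PCL5 directs Pho85 to the Gcn4 protein. The Thi2 comparisons called 0 list genes.

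The genes most like each member in their shares over the 14 groups were ranked among 2292 windows with at least 50 sites, by Pearson's r of the log2 shares. For CLN3 these were GUT2, a glycerol-3-phosphate dehydrogenase gene (r = 0.922), BUD23 (0.903) and TVS1 (0.900). GUT2 held 56 Gal4 plasmid and 161 Gal4 pool sites, against 12 in the Sir4-free library. For PCL2 they were MRPL10 (0.932), POP3 (0.898) and MID2, a cell wall stress sensor gene (0.895). For PCL10 they were YPS3 (0.904), CYT2 (0.897, on chromosome 11, where the annotation was taken as displaced) and IZH3 (0.882). For PCL1 they were HBN1 (0.856), RSM10 (0.846) and CCT6 (0.843), and for TEC1 YBR284W (0.870), VCX1 (0.863) and WSC2 (0.851). VCX1 is the gene next to PCL2, ending 1040 bp upstream of it. POP3 and WSC2, both on chromosome 14, had nearly the same counts (468 and 466 sites in all libraries). Overlapping windows were left out only within the 3 genes of a member, so these 2 need not be separate regions. WHI5 had the weakest likenesses, to DED1 (0.774), SDH9 (0.770) and CPP1 (0.704). These are descriptions over 14 points that share libraries and depth.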

How the data were processed

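The deposited files give, per the labels and the series text, each insertion site with its chromosome, position and direction and the raw counts of its reads, not normalized by the authors. Libraries were made from DNA cut with Hinp1I, HpaII or TaqI, self-ligated, amplified by inverse PCR and sequenced on an Illumina GAII. The aligner and genome build were not given in the sources used here. Sites listed more than once (4019 in the Sir4-free file) were counted as 1 site, and 444512 sites with 17876182 reads entered.

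Windows of 1 kb upstream of start codons came from assembly R64, used for names and neighbours. Its displacement from the data around the 6 genes, scanned in steps of 10 bp, was at most 60 bp (WHI5). Of the list of 48 genes, 3 on chromosome 11 were left out for a larger displacement, which was taken as given and not scanned. Other named genes away from the 6 genes were kept without a scan. The genes and lists were chosen with earlier results of these data known. Named genes are the 6 members, the 3 windows of at least 50 sites most like each (log2 share with 0.5 site added), list genes that were called, and up to 3 uncalled ones with most sites. LPX1 was named after its values were seen.

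Pools were fitted in edgeR 4.0.16 (R 4.3.3, limma 3.58.1; TMM factors 0.703 to 1.48, windows with at least 10 sites, 6 residual degrees of freedom, biological coefficient of variation 0.0817). The labels call the pools biological replicates. Gal4 and Kar4 pools were kept out of the fit that tested the 6 genes. Fisher's exact tests, Clopper-Pearson intervals (95%) and conditional ratio intervals used scipy 1.17.1, with numpy 2.4.6, pandas 2.3.3, matplotlib 3.10.9 and Python 3.11.15. Both tests were tested on simulated data. Alternatives were DESeq2 1.42.0, no filter, windows of 600 bp, sites of at least 5 reads, leaving out replicates, a replicate block, all 16 pools, sites listed with 10 times more reads elsewhere in a pool left out, joined directions, windows moved by 50 bp and, added later, windows of 2 kb. A planned motif search in the promoters was not run.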

Additional observations from a re-analysis of the deposited data

How the results depend on the processing

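The rise of PCL1 with Rpi1 kept its call in all 10 alternatives (log2 fold 3.21 to 3.66). Over all alternatives, 488 of 503 tests on the 6 genes kept their side of the threshold. Direction was compared only where a test was called in either setting, and most were called in neither. A call was lost in 11 and gained in 3, and the fold turned direction in 1. CLN3 with Sfg1 turned from 0.37 to −0.96 (adjusted p 0.00291, edgeR) with a window of 2 kb, and CLN3 passed with Sef1 there (1.21, adjusted p 1.56e-05) and with Lee1 (−0.98, adjusted p 0.0313). PCL2 passed with Lee1 (1.24, adjusted p 0.0283) without sites listed more fully elsewhere in a pool. PCL1 with Sfg1 also lost its call with no filter, 600 bp, 5 reads or all 16 pools (adjusted p 0.0514 to 0.219). Of 215 tests on LPX1 and called list genes 166 kept their side and 48 lost their call, and WHI2 with Rpi1 turned to −0.01 (adjusted p 0.978) at 600 bp. The causes were not tested.

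Counts of windows called depended on the setting. DESeq2 called 54 with Lee1 (15 higher; edgeR 82, 36 higher) and 84 with Sfg1 (1 higher and 83 lower; edgeR 252, 201 higher and 51 lower), and its split with Rgm1 was 109 higher and 3 lower (edgeR 94 and 69) and with Sef1 164 and 41 (edgeR 201 and 19). Windows of 600 bp gave 15 with Lee1, 124 with Sfg1 and 15 for starved against complete Thi2 medium (8 at 1 kb). Sites of at least 5 reads gave 8 with Lee1, 102 with Rgm1 (44 higher), 105 with Sfg1, 162 with Yrm1, 115 with Kar4 (191 with all sites), 0 with complete-medium Thi2 (3 with all sites) and 14 for starved against complete medium. Windows of 2 kb gave 138 with Lee1, 336 with Sef1 (220 at 1 kb), 18 with complete-medium Thi2 and 14 for starved against complete medium. Leaving out 1 replicate gave 5 to 18 with Lee1, 62 to 84 with Rgm1 (163 with both), 110 to 125 with Rpi1 (191 with both), 32 to 92 with Sfg1, 192 to 205 with Yrm1 (291 with both) and 114 to 126 with Kar4. A lone replicate is assumed there to vary like the other fusions.

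Libraries with the same replicate number deviated together weakly (median r 0.0789 over 15 pairs of fusions, −0.041 to 0.226, 6 above 0.1), so the numbers were not taken as pairs. A replicate block gave 74 with Lee1, 172 with Rgm1, 193 with Rpi1, 223 with Sef1, 218 with Sfg1, 289 with Yrm1, 198 with Gal4 and 196 with Kar4, and of all calls on genes tried it ended that of SWI5 with Kar4 (adjusted p 0.0546). Windows of 600 bp, windows of 2 kb and sites of at least 5 reads each moved 7 of the 24 described shares. With 600 bp the CLN3 share was 0.164% in the Gal4 plasmid library and 0.136% in the Gal4 pools, against 0.0151% without Sir4, and the PCL2 share with Kar4 was 0.797%, against 0.0452% without Sir4. With sites of at least 5 reads the CLN3 share was 1.06% in the Gal4 plasmid library and 0.345% in the Gal4 pools, and the PCL2 share with Kar4 was 1.58%. Moving windows by 50 bp either way moved 0 of the 24 shares beyond their spread or interval. Depth limits the Rgm1, Leu3 and starved Thi2 libraries, where fewer than 5 sites at a gene were common.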
